A study of Mus musculus with 7 samples.

Results

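The genes of the proteasome were followed in splenic monocytes of 2 mice after 3 h with an antiphospholipid antibody or a Toll-like receptor agonist. Members were the genes with a single-symbol probe set whose symbol starts with Psma to Psmg and a number, without 2 inducible catalytic subunits that the rule leaves out. No filter on level was used, and a gene with several probe sets was read from the brightest on average. This gave 47 of 22180 genes. Of them, 45 encode subunits, activators, an inhibitor or assembly factors, and Psmc3ip (a meiotic recombination factor) and Psme3ip1 (a protein that binds Psme3) match only by their letters. Psma4 is not a member here, because both of its probe sets also carry the symbol of a second gene.

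RNA was measured on 7 Affymetrix Mouse Gene 2.0 ST arrays, 1 for each mouse and condition. HL7G, a monoclonal antiphospholipid antibody, was given at 400 ng/ml to cells of mouse 1 and mouse 2. R848, an agonist of TLR7, was given at 2 µg/ml, CpG B, an agonist of TLR9, at 2.5 µM, and poly I:C, which mimics double-stranded RNA and is sensed by TLR3, at 1 µg/ml, each to cells of mouse 1 alone. Unstimulated cells came from both mice. All cells carried wild-type EPCR, while strain, age, sex and the gate for the monocytes are not given in the sources used. The comparisons ask how far proteasome transcripts move with the antibody and whether the 3 agonists move them alike.

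The proteasome is the protease that degrades proteins tagged with ubiquitin. Its barrel-shaped core is stacked from rings of alpha subunits, which form the gate, and rings of beta subunits, some of which are the proteolytic sites. A regulatory cap binds ubiquitin chains, removes them and unfolds the substrate with a ring of ATPases. In immune cells interferons induce alternative catalytic subunits and the PA28 activator, and the peptides that result are loaded on MHC class I.

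All levels are log2 values of probe sets as deposited, and differences are between log2 values of the same probe set. Levels of different genes are not set against each other, since each probe set has its own brightness. A gene was tested if it reached a level of 5 on at least 1 array, which 40 of the 47 genes and 11127 of 22180 genes did. Of these 40, 18 reached it only on arrays of stimulated cells. Counts above 0 in each comparison, and those called with HL7G in the main fit, are therefore also given over all 47. Counts by mouse or of unadjusted p are over the 40 tested unless stated. Calls required an adjusted p under 0.05 (limma across all genes tested, Benjamini-Hochberg), and errors beside differences are standard errors of that fit. The arrays of R848, CpG B and poly I:C have no replicate and were assumed to vary like the other groups.

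Most proteasome genes read higher after HL7G than in unstimulated cells. Without a filter on level, 39 of the 47 genes had a difference above 0, while 38.6% of all 22180 genes did. The median difference was 0.72 over the 47 genes and -0.12 over all genes. Both HL7G arrays lay above both unstimulated arrays for 37 of the 47 genes (25.6% of all genes), and both lay below for 5 (38.0% of all genes). In that fit 14 of the 47 were called higher and none lower, against 8.32% of all genes called higher.

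Among the 40 members tested, 14 were called higher in HL7G samples and none lower, against 16.3% of the genes tested called higher. Of the 40, 35 had a difference above 0 (53.0% of the genes tested), and 25 had an unadjusted p under 0.05 (35.9% of the genes tested). The median difference was 0.804, with quartiles of 0.53 and 1.33, and that of all genes tested was 0.0603. Of all calls, 89.6% were higher with HL7G, against 78.4% after median centring, 68.7% after loess and 57.6% after quantile normalization, which shifted the median of all genes by -0.13, -0.14 and -0.18. The members' median minus that of all genes was 0.74 as reported and 0.74, 0.61 and 0.63 in these settings. After loess Psma3, Psmb10, Psmc1, Psmd2 and Psme1 lost their calls. The ATPase Psmc6 had the highest difference (2.04 ± 0.27) and the thymic subunit Psmb11 the lowest (-0.698 ± 0.21).

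Leaving out 1 array of a pair leaves 1 residual degree of freedom in place of 2. A call lost in this way cannot be assigned to the values of the array left out. With this limit, the number of calls depended on whether the unstimulated array of mouse 1 was included. In limma without that array 0 of the 40 members were called (16 at an unadjusted p under 0.05, smallest adjusted p = 0.0878), with 2 calls among all 11127 genes, while the members' median was 0.75. Without the mouse 2 unstimulated array 4 of the 40 were called, Psma1, Psmc6, Psmd8 and Psmd11, or 10% against 7.75% of all genes. Leaving out the HL7G array of mouse 1 gave 9, or 22.5% against 12.1% of all genes, and of mouse 2 gave 27, or 67.5% against 29.6%. Differences were larger over the 1337 genes whose mean level over the 7 arrays was 6 or more, which include 7 members. This choice itself favours genes that are higher on the 5 stimulated arrays. The median difference was 0.86 over the 1337 genes and 1.01 over the members among them, with 2 of the 7 members called against 34.2% of those genes.

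**Figure D1:**
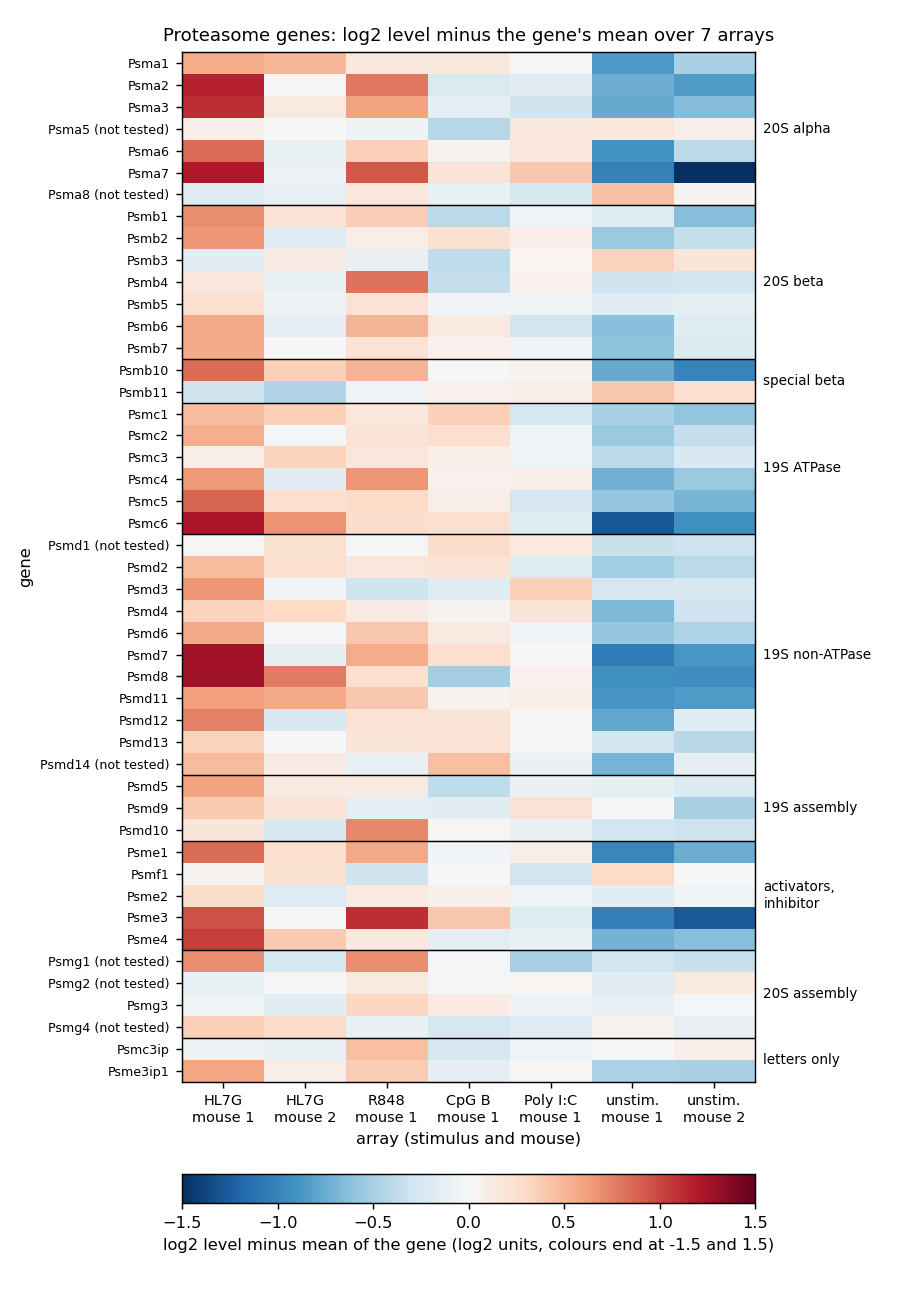
Level of each of the 47 proteasome genes (rows, grouped by role) on each of the 7 arrays (columns), as the log2 level minus that gene's mean over the 7 arrays. Red is above and blue below the gene's mean; the HL7G array of mouse 1 was the highest of the 7 for 32 genes and the unstimulated array was the lowest for 22 genes in mouse 1 and for 12 in mouse 2.

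The samples differed in more than the proteasome. For 9 abundant transcripts used as a check of the arrays (of 7 tested, Actb, B2m and Ptprc were called higher with HL7G and Gapdh lower), the medians were 7.75 and 8.07 with HL7G, 7.06 with R848, 6.86 with CpG B and 6.96 with poly I:C, against 5.02 and 5.73 in the unstimulated samples. Without stimulus, Actb read 5.02 in mouse 1 and 6.81 in mouse 2, B2m 5.74 and 7.90, and Eef1a1 6.61 and 9.46. With a stimulus, Actb was at least 7.77, B2m 9.23 and Eef1a1 10.23. Among the 9, only Gapdh (9.13 and 8.75) and Tuba1b (4.69 and 4.24) were higher in mouse 1 without stimulus. Of the B cell markers, 9 of 10 reached a level of 5 and 7 were called higher with HL7G. Their means were 6.43 and 6.40 with HL7G, 6.06 with R848, 5.79 with CpG B and 5.98 with poly I:C. In the unstimulated samples these were 5.10 and 5.38. Of the T cell markers, 6 of 6 reached that level and 4 were called higher. Their means were 6.31 and 6.16 with HL7G, 5.55 with R848, 5.47 with CpG B and 5.49 with poly I:C. In the unstimulated samples these were 4.84 and 5.06. Monocyte markers had means of 5.22 and 5.20 with HL7G, 5.07 with R848, 4.98 with CpG B and 4.96 with poly I:C. In the unstimulated samples these were 4.85 and 4.97. In limma 2 of 8 tested were called higher with HL7G, Lyz2 (1.79 ± 0.34, adjusted p = 0.0186) and Mpeg1 (1.77 ± 0.41, adjusted p = 0.0290). Cx3cr1 had -0.82 ± 0.26, adjusted p = 0.0693. The listed markers under the level needed for testing include Ly6c2 and Ccr2, at most 4.38 and 4.09 on any array. The B cell gene Ighm was between 7.801 and 8.79. NK cell markers had means of 4.72 and 4.91 with HL7G, 4.80 with R848, 5.04 with CpG B and 4.87 with poly I:C. In the unstimulated samples these were 5.19 and 5.05. Klrb1c and Nkg7 were lower on every stimulated array than on both unstimulated arrays, while Gzma, Ncr1 and Prf1 overlapped. Of the NK cell markers, 0 of 3 tested were called in limma (1 at an unadjusted p under 0.05). The part of these differences in the proteasome result was not tested. Whether the sample or array quality of unstimulated mouse 1 plays a part was not tested either. In bulk RNA, fewer cells of a type and less RNA per cell cannot be told apart.

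The alpha subunits, which form the outer rings and the gate of the core, had 7 members. Without a filter on level 5 of the 7 lay above 0, with a median of 1.1999, and 3 were called higher (8.32% of all genes). With the filter 4 were called of the 5 tested (16.3% of the genes tested), and 3 of these 5 reached a level of 5 only on stimulated arrays. Psma7 read 7.01 and 5.72 with HL7G (mouse 1 and mouse 2), 6.74 with R848, 6.003 with CpG B and 6.22 with poly I:C, against 4.80 and 4.201 in the unstimulated samples. All 5 stimulated samples were above both unstimulated samples, and HL7G differed from unstimulated by 1.87 ± 0.43 (3.65-fold, n = 2 against 2, adjusted p = 0.0294).

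Psma1 read 5.01 and 4.95 with HL7G, 4.62, 4.61 and 4.43 with R848, CpG B and poly I:C, and 3.595 and 3.97 unstimulated. The HL7G values of the mice lay close together, and the difference was 1.1999 ± 0.23, adjusted p = 0.0191. Psma2 (1.36 ± 0.38, adjusted p = 0.0489) and Psma3 (1.32 ± 0.34, adjusted p = 0.0380) were called too, each with a wide gap between the mice. The Psma2 call was lost with no filter on level (adjusted p = 0.0538), after median centring (adjusted p = 0.0558) and when either unstimulated array or the HL7G array of mouse 1 was left out (adjusted p = 0.0869 to 0.188). Psma2 differed by 1.89 in mouse 1 and 0.83 in mouse 2. Psma6 had 1.01 ± 0.36, adjusted p = 0.0916, with 1.74 in mouse 1 and 0.28 in mouse 2. Psma5 and Psma8, a testis-specific alpha subunit, had differences of -0.089 and -0.399 and stayed under the level needed for testing, between 3.36 and 3.97 and between 3.71 and 4.39.

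The constitutive beta subunits, which hold the proteolytic sites, had 0 of 7 members called, while 16.3% of the genes tested were called higher. In limma 6 of the 7 lay above 0 (53.0% of the genes tested), with a median of 0.63. An unadjusted p under 0.05 was reached by 2 (35.9% of the genes tested). Of the 7 beta subunits, 2 reached a level of 5 only on stimulated arrays. Of the 3 that carry active sites, Psmb5, the chymotrypsin-like subunit, read 6.56 and 6.23 with HL7G (mouse 1 and mouse 2), 6.53 with R848, 6.27 with CpG B and 6.26 with poly I:C, against 6.14 and 6.18 in the unstimulated samples. All 5 stimulated samples were above both unstimulated ones by small margins, and the HL7G difference was 0.23 ± 0.22, adjusted p = 0.474. Psmb6, the caspase-like subunit, read 5.76 and 5.06 with HL7G, 5.69, 5.33 and 4.91 with R848, CpG B and poly I:C, and 4.55 and 5.003 unstimulated (0.63 ± 0.304, adjusted p = 0.184). Psmb7, the trypsin-like subunit, read 5.97 and 5.41 with HL7G, 5.63, 5.48 and 5.37 with R848, CpG B and poly I:C, and 4.803 and 5.21 unstimulated (0.69 ± 0.28, adjusted p = 0.126).

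For Psmb6 and Psmb7 the difference was larger in mouse 1, at 1.202 and 1.17, with 0.052 and 0.21 in mouse 2. Among the structural beta subunits, Psmb1 read 7.53 and 7.05 with HL7G, 7.204, 6.43 and 6.77 with R848, CpG B and poly I:C, and 6.65 and 6.19 unstimulated (0.87 ± 0.27, adjusted p = 0.0686), with nearly the same difference in mouse 1 (0.88) and mouse 2 (0.85). Psmb2 read 5.59 and 4.78 with HL7G, 5.04, 5.16 and 5.03 with R848, CpG B and poly I:C, and 4.38 and 4.57 unstimulated, a difference of 0.71 ± 0.305, adjusted p = 0.146. Psmb4 had 0.31 ± 0.22 and Psmb3 -0.29 ± 0.22, and neither was called. The directions of Psmb5 (also after quantile normalization) and Psmb1 turned after loess on the genes tested, to -0.43 and -0.13. Whether alpha and beta subunits differ was not tested.

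Psmb10, the inducible counterpart of Psmb7 in the immunoproteasome, was called. It read 7.43 and 6.95 with HL7G (mouse 1 and mouse 2), 7.098 with R848, 6.605 with CpG B and 6.65 with poly I:C, against 5.84 and 5.59 in the unstimulated samples. All 5 stimulated samples lay above both unstimulated ones, and HL7G differed by 1.48 ± 0.25 (2.78-fold, adjusted p = 0.0147), with 1.59 in mouse 1 and 1.36 in mouse 2. After loess on the genes tested the difference was 0.63 and the call was lost (adjusted p = 0.0969). Psmb11, the beta subunit of the thymic cortex, read 4.33 and 4.18 with HL7G, 4.57, 4.69 and 4.72 with R848, CpG B and poly I:C, and 5.04 and 4.88 unstimulated. All 5 stimulated samples lay below both unstimulated ones, and HL7G differed by -0.698 ± 0.21, adjusted p = 0.0643, which was a call only after median centring and quantile normalization among the settings run.

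**Figure D2:**
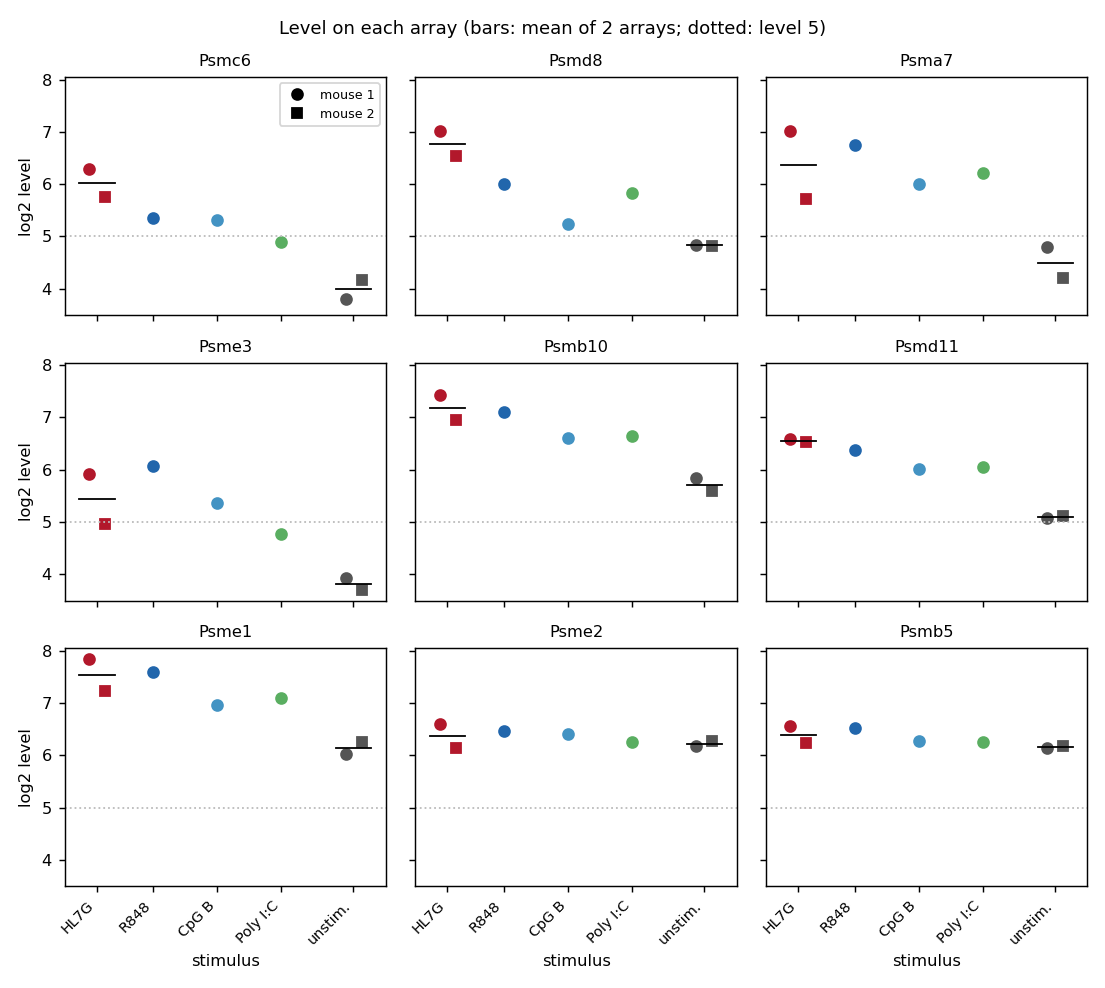
Log2 level (vertical axis) of 9 proteasome genes on each array, by stimulus (horizontal axis); circles are mouse 1, squares mouse 2, bars the mean of 2 arrays, and the dotted line the level of 5 used for testing. Psmc6, Psmd8, Psma7, Psme3, Psmb10, Psmd11 and Psme1 were higher on every stimulated array than on both unstimulated arrays, while Psme2 and Psmb5 ranged from 6.13 to 6.596 and from 6.14 to 6.56 over the 7 arrays.

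The ATPases of the cap base, which unfold substrates and thread them into the core, had 6 of 6 members above 0. With and without the filter 3 were called (16.3% of the genes tested and 8.32% of all genes were called higher). Of the 6 ATPases, 3 reached a level of 5 only on stimulated arrays. Psmc6 read 6.299 and 5.76 with HL7G (mouse 1 and mouse 2), 5.34 with R848, 5.32 with CpG B and 4.901 with poly I:C, against 3.81 and 4.16 in the unstimulated samples. Both HL7G samples were the highest, the 3 agonist samples lay between, and the difference was 2.04 ± 0.27 (4.13-fold, adjusted p = 0.0120). Psmc5 read 6.32 and 5.701 with HL7G, 5.75, 5.55 and 5.202 with R848, CpG B and poly I:C, and 4.87 and 4.75 unstimulated (1.202 ± 0.27, adjusted p = 0.0260), and Psmc1 differed by 0.95 ± 0.21, adjusted p = 0.0255.

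Psmc1 had the same difference in mouse 1 and mouse 2 (0.95 in both), and its call was lost after loess (0.66, adjusted p = 0.0706). The Psmc1 call was also lost after quantile normalization. Psmc4 (0.88 ± 0.301), Psmc2 (0.72 ± 0.26) and Psmc3 (0.54 ± 0.22) were not called. The dimmer of the 2 Psmc2 probe sets went the other way, with a difference of -0.49, so the 2 probe sets of this gene disagree.

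The non-ATPase subunits of the cap recognise, edit and hold the substrate. Without a filter all 11 members were above 0 (38.6% of all genes) and 4 were called (8.32% of all genes), with a median of 0.79. With it 9 were tested, 5 of them at a level of 5 only on stimulated arrays, and 3 were called (16.3% of the genes tested). Psmd8, a lid subunit, read 7.02 and 6.53 with HL7G (mouse 1 and mouse 2), 6.01 with R848, 5.24 with CpG B and 5.82 with poly I:C, against 4.83 and 4.83 in the unstimulated samples. The unstimulated samples of the 2 mice were nearly equal, every stimulated sample was above them, and HL7G differed by 1.95 ± 0.24 (3.85-fold, adjusted p = 0.0120).

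Psmd11, a lid subunit whose amount is known to limit proteasome assembly in human embryonic stem cells, read 6.58 and 6.53 with HL7G (mouse 1 and mouse 2), 6.37 with R848, 6.02 with CpG B and 6.06 with poly I:C, against 5.08 and 5.11 in the unstimulated samples. The mice lay close together in both groups, and the difference was 1.46 ± 0.21, adjusted p = 0.0120. Psmd2, the scaffold that docks ubiquitin shuttles, had 0.82 ± 0.22, adjusted p = 0.0429. With the mouse as a block this call was lost (adjusted p = 0.0796), and that of the lid subunit Psmd7 (1.52 ± 0.43, adjusted p = 0.0527) was gained (adjusted p = 0.0334). The Psmd2 call was also lost after median centring, loess and quantile normalization.

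Psmd7 read 6.81 and 5.402 with HL7G, 6.098, 5.79 and 5.54 with R848, CpG B and poly I:C, and 4.498 and 4.67 unstimulated, a difference of 2.31 in mouse 1 and 0.74 in mouse 2. The ubiquitin receptor Psmd4 read 5.802 and 5.76 with HL7G, 5.59, 5.499 and 5.65 with R848, CpG B and poly I:C, and 4.78 and 5.15 unstimulated, so that every stimulated sample lay above both unstimulated ones, and HL7G differed by 0.82 ± 0.23, adjusted p = 0.0507. Psmd6 (0.79 ± 0.26), Psmd12 (0.75 ± 0.37), Psmd3 (0.55 ± 0.28) and Psmd13 (0.51 ± 0.23) were not called. Psmd14, the deubiquitinase of the lid, read 4.905 and 4.55 with HL7G, 4.31, 4.87 and 4.33 with R848, CpG B and poly I:C, and 3.73 and 4.29 unstimulated, and like Psmd1 (between 4.304 and 4.92) it did not reach the level needed for testing.

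**Figure D3:**
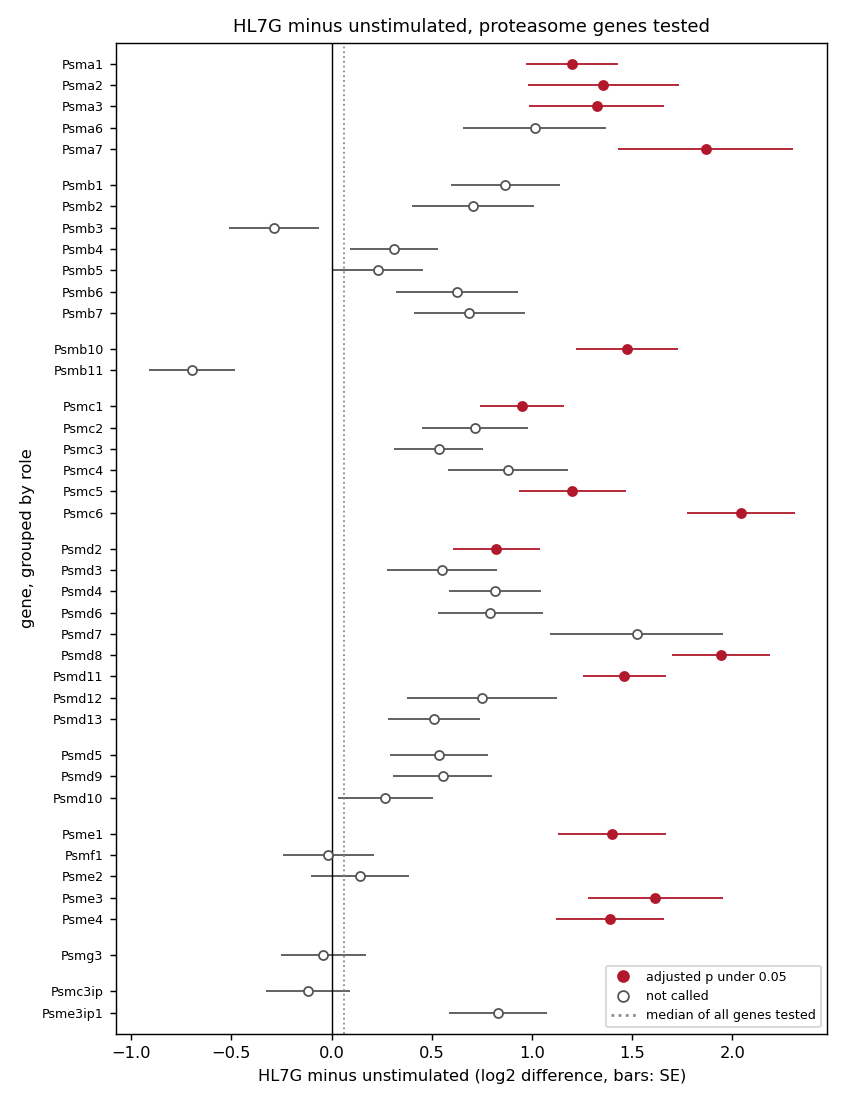
HL7G minus unstimulated (horizontal axis, log2 difference with its SE, 2 arrays against 2) for the 40 proteasome genes tested, grouped by role down the page; filled points have an adjusted p under 0.05 and the dotted line is the median of all genes tested, 0.06. All 14 called genes lie to the right of 0, while 16.3% of all genes tested were called higher. None of the 7 constitutive beta subunits is among the 14.

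Of the 5 activators and inhibitors of the core, 3 were called higher (16.3% of the genes tested). Among these 3, Psme3 and Psme4 reached a level of 5 only on stimulated arrays. Psme1 and Psme2 encode the alpha and beta chains of PA28, an interferon-inducible activator that opens the gate without ATP. Psme1 read 7.84 and 7.24 with HL7G (mouse 1 and mouse 2), 7.59 with R848, 6.96 with CpG B and 7.102 with poly I:C, against 6.03 and 6.26 in the unstimulated samples. All stimulated samples were above the unstimulated ones, and HL7G differed by 1.3997 ± 0.27 (2.64-fold, adjusted p = 0.0191), and by 0.295 after loess on the genes tested (adjusted p = 0.343). The Psme1 call was lost after loess and after quantile normalization.

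Psme2 read 6.596 and 6.13 with HL7G (mouse 1 and mouse 2), 6.47 with R848, 6.41 with CpG B and 6.26 with poly I:C, against 6.17 and 6.27 in the unstimulated samples. Its groups overlapped, with an HL7G difference of 0.14 ± 0.24, adjusted p = 0.686, and the sign turned after loess and quantile normalization. A further probe set that carries Psme2 with the symbols of 2 other genes had a difference of -0.28. Psme3, the nuclear PA28 gamma, read 5.92 and 4.95 with HL7G (mouse 1 and mouse 2), 6.07 with R848, 5.37 with CpG B and 4.77 with poly I:C, against 3.94 and 3.704 in the unstimulated samples. It was high with R848 and with HL7G in mouse 1 and low without stimulus, with an HL7G difference of 1.62 ± 0.34, adjusted p = 0.0225.

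Psme4, the nuclear activator PA200, had 1.39 ± 0.27, adjusted p = 0.0192, with levels of 5.78 and 5.14 with HL7G, 4.91, 4.62 and 4.65 with R848, CpG B and poly I:C, and 4.04 and 4.11 unstimulated. Psmf1, the inhibitor PI31, read 5.49 and 5.68 with HL7G, 5.15, 5.45 and 5.16 with R848, CpG B and poly I:C, and 5.75 and 5.45 unstimulated, with overlapping groups (-0.016 ± 0.23, adjusted p = 0.963). The 3 chaperones that assemble the cap base were tested and not called, at 0.55 ± 0.25 for Psmd9, 0.54 ± 0.24 for Psmd5 and 0.27 ± 0.24 for Psmd10. Of these 3, 2 reached a level of 5 only on stimulated arrays. Of the 4 core assembly chaperones only Psmg3 was tested, at 5.64 and 5.54 with HL7G, 6.01, 5.82 and 5.62 with R848, CpG B and poly I:C, and 5.58 and 5.69 unstimulated (-0.0405 ± 0.21, adjusted p = 0.897). Psmg1 read 4.64 and 3.68 with HL7G, 4.64, 3.91 and 3.46 with R848, CpG B and poly I:C, and 3.67 and 3.604 unstimulated, while Psmg2 and Psmg4 stayed between 4.07 and 4.396 and between 3.84 and 4.45. Psme3ip1 had 0.83 ± 0.25, adjusted p = 0.0579 and Psmc3ip -0.12 ± 0.21, adjusted p = 0.697.

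Promoters of the members were read for 3 motifs, since NFE2L1 is known to drive proteasome genes and interferon signalling is known to induce Psme1 and Psmb10. The windows run from 250 bases before to 50 bases after the gene start (RefSeq, GRCm38.p6) and were found for 39 of the 47 genes, 43 windows in all, and for all 14 called genes. TGACNNNGC, the antioxidant response type, was in 6 of the 43 windows and in 12.4% of all 32851 windows. The interferon-stimulated response type, GAAA and GAAA with any 2 bases between them, was in 5 of 43 and 3.44% of all. TTCNNNGAA, the gamma-activated site type, was in 2 of 43 and 8.30% of all. Both strands were searched. The windows below belong to the 4 called genes with a match, to Psmb10 and to the uncalled catalytic subunits Psmb5 and Psmb6, so that called and uncalled members can be read side by side. Capitals mark the matches.
Psme1, chr14:55578244-55578543, plus strand: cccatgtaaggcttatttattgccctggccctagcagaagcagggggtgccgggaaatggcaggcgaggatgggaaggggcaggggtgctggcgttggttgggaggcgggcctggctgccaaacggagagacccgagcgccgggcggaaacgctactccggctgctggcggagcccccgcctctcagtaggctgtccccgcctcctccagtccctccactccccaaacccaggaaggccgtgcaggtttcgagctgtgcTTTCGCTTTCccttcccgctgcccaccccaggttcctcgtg
Psmc6, chr14:45329574-45329873, plus strand: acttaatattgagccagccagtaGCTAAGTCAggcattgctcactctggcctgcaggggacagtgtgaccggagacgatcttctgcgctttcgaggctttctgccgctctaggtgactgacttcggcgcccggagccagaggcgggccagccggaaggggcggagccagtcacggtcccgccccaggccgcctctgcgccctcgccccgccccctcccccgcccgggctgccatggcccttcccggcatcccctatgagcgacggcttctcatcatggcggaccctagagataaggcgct
Psme4, chr11:30771525-30771824, plus strand: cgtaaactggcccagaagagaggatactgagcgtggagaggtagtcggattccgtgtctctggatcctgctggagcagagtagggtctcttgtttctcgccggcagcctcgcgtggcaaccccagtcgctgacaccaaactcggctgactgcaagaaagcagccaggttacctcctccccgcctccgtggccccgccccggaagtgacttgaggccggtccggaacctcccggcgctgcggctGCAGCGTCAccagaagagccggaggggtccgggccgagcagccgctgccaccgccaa
Psmd2, chr16:20651402-20651701, plus strand: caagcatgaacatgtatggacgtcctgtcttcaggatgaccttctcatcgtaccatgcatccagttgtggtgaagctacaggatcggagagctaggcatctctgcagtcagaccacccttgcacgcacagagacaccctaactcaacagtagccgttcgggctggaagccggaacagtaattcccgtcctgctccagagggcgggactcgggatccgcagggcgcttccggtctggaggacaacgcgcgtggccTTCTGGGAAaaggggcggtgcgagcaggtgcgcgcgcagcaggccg
Psmb10, chr8:105938343-105938642, minus strand: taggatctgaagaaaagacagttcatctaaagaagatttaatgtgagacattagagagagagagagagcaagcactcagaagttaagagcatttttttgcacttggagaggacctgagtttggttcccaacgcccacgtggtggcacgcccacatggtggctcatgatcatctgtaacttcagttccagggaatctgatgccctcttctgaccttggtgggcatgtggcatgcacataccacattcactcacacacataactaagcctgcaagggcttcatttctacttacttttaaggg
Psmb5, chr14:54617946-54618245, minus strand: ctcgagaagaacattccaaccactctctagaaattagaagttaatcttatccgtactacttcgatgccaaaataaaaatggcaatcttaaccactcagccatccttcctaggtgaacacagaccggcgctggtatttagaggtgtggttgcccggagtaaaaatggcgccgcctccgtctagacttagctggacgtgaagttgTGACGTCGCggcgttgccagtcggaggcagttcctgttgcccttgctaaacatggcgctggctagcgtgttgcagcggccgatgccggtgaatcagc
Psmb6, chr11:70525107-70525406, plus strand: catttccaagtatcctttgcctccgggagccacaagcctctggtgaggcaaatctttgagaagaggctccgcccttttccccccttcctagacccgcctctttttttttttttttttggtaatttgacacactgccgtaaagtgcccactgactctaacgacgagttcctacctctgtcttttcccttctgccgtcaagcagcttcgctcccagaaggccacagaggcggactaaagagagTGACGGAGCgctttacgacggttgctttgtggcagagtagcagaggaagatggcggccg

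The match of Psme1 is of the interferon type and starts at base 260 of its window, just after the gene start. Psmb3, Psmd4, Psmd9 and Psmg4, none of them called, also had matches of the interferon type, in windows not shown. Psmd2 holds a gamma-activated site type match, as does the untested Psmg1. Those of Psmc6, Psme4, Psmb5 and Psmb6 are of the antioxidant response type, so this motif was found in called and in uncalled members. None of the 3 motifs was in the Psmb10 window. A match is a string of letters and not a site shown to be bound, and the absence of one holds for these letters in this window alone.

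The mice were compared on differences that share no array. Of the 40 members tested, 33 were above 0 in both mice, 3 were below 0 in both and 4 had opposite signs. Over all 11127 genes tested these counts were 4907, 3798 and 2422. The median difference was 1.13 in mouse 1 and 0.50 in mouse 2, against 0.0225 and 0.12 over all genes tested. Of the 40, 34 differed more in mouse 1, as did 5684 of the 11127 genes tested. On the HL7G arrays 5454 of the 11127 genes tested read lower in mouse 1 than in mouse 2. Among the 40 members, 37 read higher in mouse 1 on these arrays. The members' median gap was 0.49 there and -0.0532 between the 2 unstimulated arrays. Psmd12, a lid subunit, was an example, at 1.54 in mouse 1 and -0.045 in mouse 2. At least 2-fold differences in both mice were seen for 7 members, or 14.9% of the 47 and 4.37% of all genes.

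**Figure D4:**
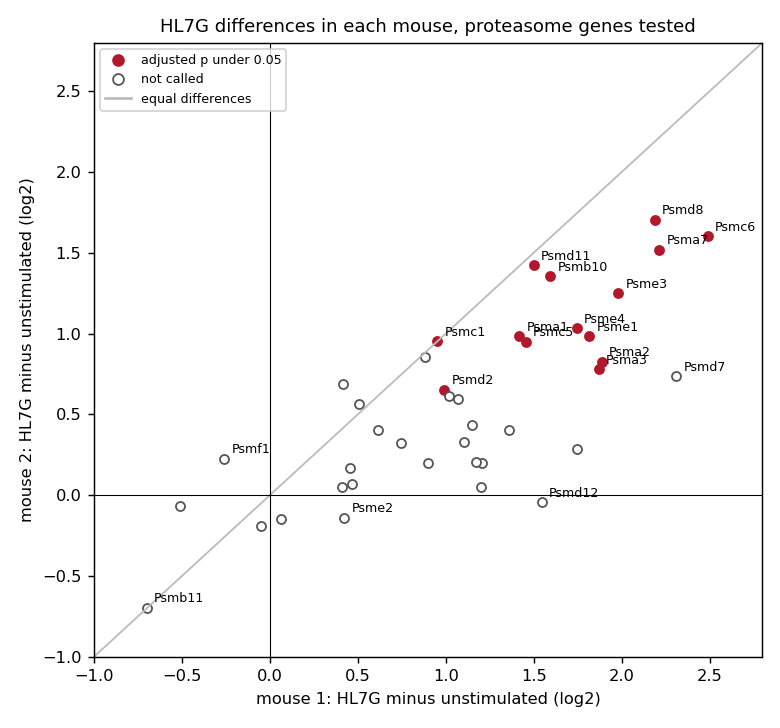
HL7G minus unstimulated (log2) in mouse 1 (horizontal axis) and mouse 2 (vertical axis) for the 40 proteasome genes tested; filled points were called in the fit over both mice and the diagonal marks equal differences. Most points lie below the diagonal (34 of 40 differed more in mouse 1, against 5684 of all 11127 genes tested). Psmd8, Psmc6 and Psma7 are among the 4 highest in both mice and Psmb11 is below 0 in both.

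Members also read higher with the TLR agonists, though none was called in the fit on the deposited values of all 7 arrays. The comparisons with R848, CpG B and poly I:C share the unstimulated arrays with that of HL7G, so their values are given side by side only. The members' median was 0.81 with R848, 0.55 with CpG B and 0.44 with poly I:C, against 0.088, 0.033 and 0.018 over all genes tested. The agonist arrays are all from mouse 1, and these differences are from the mean of both unstimulated mice. From the unstimulated array of mouse 1 alone the medians were 1.13 with HL7G, 0.86 with R848, 0.65 with CpG B and 0.496 with poly I:C. In the same order, 23, 17, 5 and 5 of the 40 members were at least 2-fold higher. Of all 11127 genes tested, 2552, 1608, 1138 and 929 were. HL7G thus had the largest median within mouse 1, while the HL7G median over both mice lay beside that of R848; with 1 array each, these medians have no test. Differences above 0 were seen for 36, 34 and 35 of the 40 members with R848, CpG B and poly I:C (56.6%, 53.0% and 52.0% of all genes tested). Without a filter these were 40, 37 and 39 of the 47 (46.4%, 42.5% and 41.4% of all genes). In limma 0 of 11127 genes were called for each agonist, and an unadjusted p under 0.05 was reached by 20, 9 and 7 members, against 22.9%, 12.3% and 9.47% of the genes tested. The limma calls for R848 changed when either HL7G array, which enters that comparison only through the shared estimate of the spread, was left out: 15 members were then called, against 13.9% of all genes tested. After quantile normalization of all 7 arrays 2 members, Psme3 and Psma7, were called for R848, or 5% of the 40 against 5.18% of all genes, and with a variance trend Psme3 alone. All 5 stimulated arrays lay above both unstimulated arrays for 29 of the 47 genes, or 61.7%, against 15.5% of all 22180 genes.

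With R848, Psme3 (2.25 ± 0.41, adjusted p = 0.0855), Psma7 (2.24 ± 0.53, adjusted p = 0.0951) and Psma2 (1.57 ± 0.46, adjusted p = 0.122) had the largest differences, and Psmf1 (-0.45 ± 0.28), Psmb11 (-0.39 ± 0.26) and Psmb3 (-0.38 ± 0.27) the lowest. With CpG B the order was led by Psme3 (1.55 ± 0.41, adjusted p = 0.254), Psma7 (1.502 ± 0.53, adjusted p = 0.326) and Psmc6 (1.34 ± 0.33, adjusted p = 0.240), and Psmb3 (-0.64 ± 0.27), Psmb11 (-0.26 ± 0.26) and Psmc3ip (-0.26 ± 0.26) were lowest. With poly I:C it was led by Psma7 (1.72 ± 0.53, adjusted p = 0.461), Psmd8 (0.996 ± 0.2999, adjusted p = 0.455) and Psme1 (0.96 ± 0.33, adjusted p = 0.486), with Psmf1 (-0.44 ± 0.28), Psmb11 (-0.24 ± 0.26) and Psmb3 (-0.23 ± 0.27) lowest. Psma7 was thus among the 3 highest with each agonist and Psmb11 and Psmb3 among the 3 lowest. Psmb10 had 1.38 ± 0.31 with R848, 0.89 ± 0.31 with CpG B and 0.93 ± 0.31 with poly I:C, and Psme1 had 1.44 ± 0.33, 0.82 ± 0.33 and 0.96 ± 0.33.

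**Figure D5:**
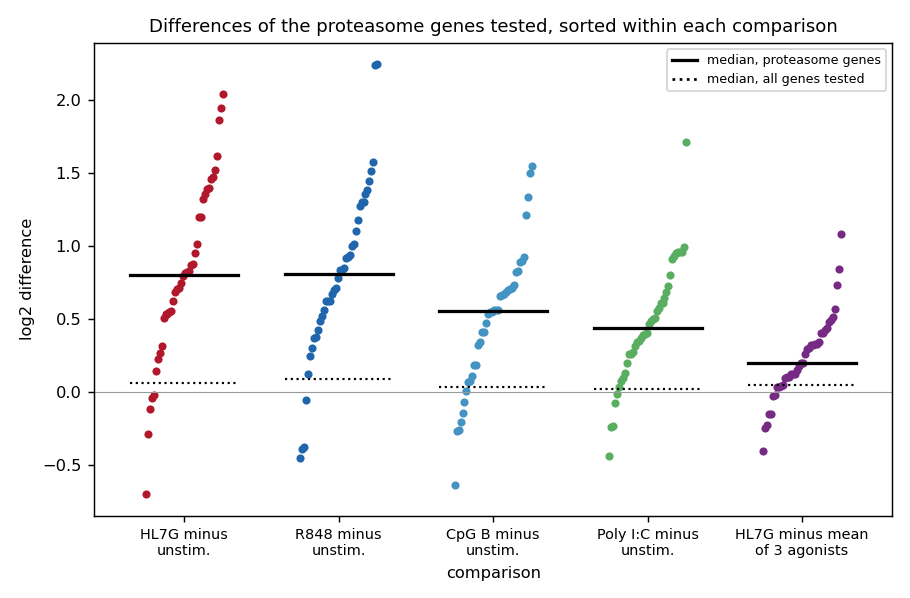
Log2 differences (vertical axis) of the 40 proteasome genes tested in 5 comparisons (horizontal axis), sorted within each; solid bars are the members' medians and dotted bars those of all genes tested. The members' medians are 0.804, 0.81, 0.55 and 0.44 for HL7G, R848, CpG B and poly I:C against unstimulated, and 0.2003 for HL7G against the agonists, which uses no unstimulated array.

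HL7G was set against the mean of the 3 agonists directly, a difference that uses no unstimulated array. The members' median was 0.2003 and that of all genes tested 0.047, with 33 of 40 members above 0 (56.0% of the genes tested). Without a filter 37 of the 47 were above 0 (46.5% of all genes). In limma 0 of 11127 genes were called, and 3 members had an unadjusted p under 0.05 (10.8% of the genes tested). These were Psmd8 (1.08 ± 0.22, adjusted p = 0.338), Psmc6 (0.84 ± 0.25, adjusted p = 0.373) and Psme4 (0.73 ± 0.25, adjusted p = 0.397). Psmb11 (-0.401 ± 0.196), Psmd10 (-0.25 ± 0.22) and Psmg3 (-0.22 ± 0.19) were lowest. Both HL7G arrays lay above all 3 agonist arrays for 10 of the 47 genes, or 21.3%, against 13.4% of all genes. The agonist arrays are all from mouse 1, while the HL7G mean is over both mice. Within mouse 1, with the HL7G array of mouse 2 left out, the median was 0.45. With the HL7G array of mouse 1 left out it was -0.041, but there stimulus and mouse cannot be told apart.

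The agonists of TLR7 and TLR9 were also set against that of TLR3, all in mouse 1. The mean of R848 and CpG B minus poly I:C had a median of 0.18 over the members and 0.051 over all genes tested. In limma 0 of 11127 genes were called, with 0 members and 1.68% of the genes tested at an unadjusted p under 0.05. Psme3 (0.94 ± 0.41), Psmb6 (0.603 ± 0.37) and Psmc1 (0.53 ± 0.26) were highest and Psmd3 (-0.601 ± 0.34), Psmd9 (-0.37 ± 0.301) and Psmb3 (-0.27 ± 0.27) lowest, each with an adjusted p of 1. Psme3 read 6.07 with R848 and 5.37 with CpG B, against 4.77 with poly I:C.

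Other genes of the ubiquitin and proteasome pathway were taken from a list of factors outside the member rule. Without a filter all 18 that had a probe set of their own were above 0 with HL7G (38.6% of all genes) and 5 were called higher (8.32% of all genes), with a median of 0.81. With the filter 15 were tested and 5 called (16.3% of the genes tested), and of these 5 Pomp, Ube3c and Ubqln4 reached a level of 5 only on stimulated arrays. Pomp, the chaperone that guides beta subunits into the core, read 5.92 and 5.21 with HL7G (mouse 1 and mouse 2), 5.48 with R848, 4.21 with CpG B and 4.899 with poly I:C, against 3.53 and 3.44 in the unstimulated samples. Every stimulated sample was above the unstimulated ones (2.08 ± 0.28, adjusted p = 0.0120). Sem1, a small subunit of the lid, had 2.01 ± 0.32, adjusted p = 0.0133, and Vcp, the ATPase that extracts ubiquitinated proteins from complexes, had 1.599 ± 0.33, adjusted p = 0.0226.

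The ubiquitin ligase Ube3c (0.95 ± 0.25, adjusted p = 0.0409) and the ubiquitin shuttle Ubqln4 (0.81 ± 0.22, adjusted p = 0.0441) were called as well. The shuttle Ubqln1 (1.05 ± 0.35, adjusted p = 0.0803) and the ligase Ube3a (1.03 ± 0.35, adjusted p = 0.0839) were not. Nfe2l1, the transcription factor known to raise proteasome genes when proteasome activity is short, had 0.48 ± 0.22, adjusted p = 0.173, and its relative Nfe2l2 had 0.65 ± 0.22, adjusted p = 0.0797. Other large housekeeping families also read higher with HL7G. Without a filter, where 8.32% of all genes were called higher, ribosomal proteins had 37 of 86 called higher with a median of 0.71. Translation factors had 27 of 64 with 0.95, and complex I subunits of the respiratory chain 6 of 33 with 0.38. The proteasome's 14 of 47 and 0.72 lay among these values, and no difference between the families was tested.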

How the data were processed

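RNA of splenic monocytes was measured on 7 arrays (5 groups, 2 mice). The authors deposited log2 expression values for 41345 probe sets. RMA, the Transcriptome Analysis Console and the Affymetrix Expression Console appear in the submitters' processing notes, with versions and genome build not given there. Probe sets were named from GEO's platform annotation (23521 with 1 symbol, 1814 with several, 16010 unnamed).

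All 7 arrays entered 1 limma 3.58.1 fit (R 4.3.3) with 5 group means, 2 residual and 4.94 prior degrees of freedom, checked on simulated data. Tests were 2-sided with Benjamini-Hochberg adjustment over 11127 genes. The number of arrays limits the precision, and p-values rest on 2 animals. The median of all probe sets was 4.40 to 4.54 per array. Same-numbered arrays came from the same mouse, which pairs them, although the mouse differences of the HL7G and unstimulated groups had r = -0.146 across genes. The mouse block was fitted as an alternative.

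Named genes were the catalytic subunits, activators, Psmf1, Psmd4 and Psmd14, the 2 largest HL7G differences per role, and the 3 highest and lowest in other comparisons; other members are given in brief. Psma1, Psmd11, Psmd2, Psmg1 and Psmd12 were described after their values were seen. Pathway genes were named by size, with Ubqln4, Nfe2l1 and Nfe2l2 added. Members and lists were chosen with earlier results of these data known.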

Additional observations from a re-analysis of the deposited data

How the results depend on the processing

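The number of members called with HL7G was 13 to 17 under median centring, quantile normalization, no filter on level, the mean of all probe sets, a variance trend and the replicate block, while the share of all genes called ran from 9.83% with no filter to 21.8% after quantile normalization. Median centring and quantile normalization each called 12 higher and Psmb11 lower. The replicate block gave 14 calls, 13 of them shared, and changed no call of a named HL7G member other than Psmd2 and Psmd7. The count was 9 after loess (18.0% of all genes) and 2 at a mean level of at least 6 (fewer genes tested), and 0 to 27 when 1 array was left out. The median HL7G difference was 0.53 after loess, 0.51 after quantile normalization, 1.01 at a mean level of at least 6, and 0.51 to 1.04 when 1 array was left out. With R848 it was 0.57, 0.56 and 0.999 in those settings. Members called with R848 numbered 2 after quantile normalization, 1 with a variance trend, and 0 to 15 when 1 array was left out, with 0 to 4 for CpG B and 0 to 1 for poly I:C (up to 4.75% and 1.78% of all genes). The median of HL7G minus the agonists was 0.033 after quantile normalization and -0.041 to 0.45 when 1 array was left out. Signs turned after loess for Psmb5 (-0.43), Psme2 (-0.54) and Psmb1 (-0.13), and after quantile normalization for Psmb5 (-0.38) and Psme2 (-0.50). With 1 array left out, Psme2 ranged from -0.090 to 0.37, Psmf1 from -0.16 to 0.13 and Psmg3 from -0.093 to 0.012. The cause was not tested. Leaving out an array of a pair assumes that the lone one varies like the other groups, and members near background have limited signal.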
